A study of Homo sapiens with 12 samples.

Results

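Epithelial and mesenchymal state genes were followed across 4 groups of cancer cell line libraries. They comprised 42 genes chosen by symbol, of 60668 genes in the count table, and all 42 were found there. Of these, 33 were epithelial genes (8 transcription and splicing factors, 9 adhesion and tight junction genes, 4 desmosome genes, 6 keratins, and 6 genes for membrane proteases, their inhibitors, vesicle trafficking and mucin) and 9 were mesenchymal genes (6 transcription factors and 3 genes for adhesion, the cytoskeleton and calcium binding). The measurement was the number of bulk RNA-seq reads per gene, from libraries made of total RNA extracts.

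PANC-1, a human pancreatic adenocarcinoma line, carried either a short hairpin RNA (shRNA) against FOSL1, labelled a FOSL1 knockdown, or a scramble shRNA, labelled WT in the genotype field. H1299, labelled as lung adenocarcinoma cells, carried either an shRNA against HDAC2 or the scramble shRNA. FOSL1 encodes Fra-1, a subunit of the AP-1 transcription factor, and HDAC2 encodes a class I histone deacetylase. There were 3 libraries in each of the 4 groups, labelled biological replicates. The methods describe stable lines made by lentiviral delivery and puromycin selection for FOSL1, and all 12 cultures grew in DMEM with 10% fetal bovine serum. Each knockdown rests on 1 hairpin (labelled sh2 for FOSL1 and sh1 for HDAC2) in 1 line, so target and line cannot be told apart. No source states that the replicates were separately transduced, so the p-values measure the spread between these libraries.

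Epithelial cells are held together by adherens junctions built on E-cadherin, tight junctions built on claudins and occludin, and desmosomes anchored to keratin filaments. Grainyhead-like, OVOL and ELF factors maintain their gene programme and the ESRP proteins their splicing pattern, whereas ZEB, SNAI and TWIST factors repress it during the epithelial to mesenchymal transition, in which vimentin and N-cadherin become prominent. Many carcinoma lines express genes of both states. Bulk libraries cannot tell fewer expressing cells from less RNA per cell.

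The hairpin target that the study lists for FOSL1 is shown with its scramble control, since every PANC-1 comparison rests on them.
FOSL1 shRNA target: gagctgcagtggatggtac
Scramble shRNA: cgtacgcggaatacttcga
The FOSL1 target lay on the minus strand at chr11:65896943-65896961 (GRCh38), in coding exon sequence of FOSL1. It also matched exactly an exon of the pseudogene FOSL1P1 at chr4:128155533-128155551, within an intron of LARP1B on the same strand, and, in antisense orientation, an intron of CCDC6 at chr10:59870504-59870522. The scramble sequence had 0 exact matches in the genome. Whether the sh2 label refers to this listed target was not stated.

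The targeted genes were checked first, as CPM, a gene's count scaled to its library's total. FOSL1 measured 219, 217 and 242 CPM in the PANC-1 scramble libraries and 178, 167 and 166 CPM in the knockdown libraries, which left 74.1% of the scramble level (log2 fold change -0.43 ± 0.062 SE, adjusted p = 2.9e-06). HDAC2 measured 171, 178 and 187 CPM in the H1299 scramble libraries and 77.3, 68.5 and 78.4 CPM after knockdown, which left 41.7% (log2 fold change -1.26 ± 0.065 SE, adjusted p = 5.4e-15). Both targets were lower in every knockdown library than in every scramble library of their line, the direction that the labels give. This alone cannot show that the labels held. Of all genes past an adjusted p of 0.05, groups did not overlap for 94.6% with FOSL1 and 95.2% with HDAC2 knockdown. Of all genes tested, 27.1% fell with FOSL1 and 12.1% with HDAC2 knockdown. FOSL1 itself rose in the HDAC2 knockdown (log2 fold change 0.40 ± 0.058 SE, adjusted p = 4.4e-06).

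Library totals ran from 16065723 to 19173421 counts. Mitochondrially encoded genes took 12.9% ± 0.395 (SD, n = 3) of counts in the FOSL1 knockdown libraries against 7.16% ± 0.154 in PANC-1 scramble, and 11.7% ± 0.659 against 12.5% ± 0.641 in the H1299 groups. Scramble replicate 1 stood apart from its group in both lines: the chi-square per degree of freedom over genes was 7.27 and 9.83 against the other two PANC-1 scramble libraries, which differed from each other by 3.08, and 7.03 and 6.29 in H1299 against 3.61. The epithelial cell type markers of the study (EPCAM, KRT19, CDH1 and KRT18) summed to 800 to 952 CPM in PANC-1 scramble and 276 to 303 CPM in H1299 scramble, where KRT18 supplied nearly all of it and CDH1, KRT19 and EPCAM were each under 1 CPM in every library. Immune, T cell and B cell markers together stayed under 1 CPM per list in all 12 libraries. The myeloid list summed to 3.25 to 4.12 CPM in PANC-1 scramble, mostly CD14 (3.36 ± 0.464 CPM). The endothelial list summed to 2.2 to 3.4 CPM in H1299 scramble, mostly PECAM1 (2.42 ± 0.441 CPM). The smooth muscle list lay between 8.48 and 14.9 CPM in all 12 libraries. The fibroblast list reached 221 to 279 CPM in PANC-1 scramble and 73.8 to 81.1 CPM in the FOSL1 knockdown through COL1A1 (249 ± 29.1 and 78.3 ± 4.07 CPM), with DCN at or near 0 and COL1A2 under 1 CPM. The fits were also run without the mitochondrially encoded genes. Beyond that, the part of the mitochondrial share and of COL1A1 in the results below was not tested.

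**Figure D1:**
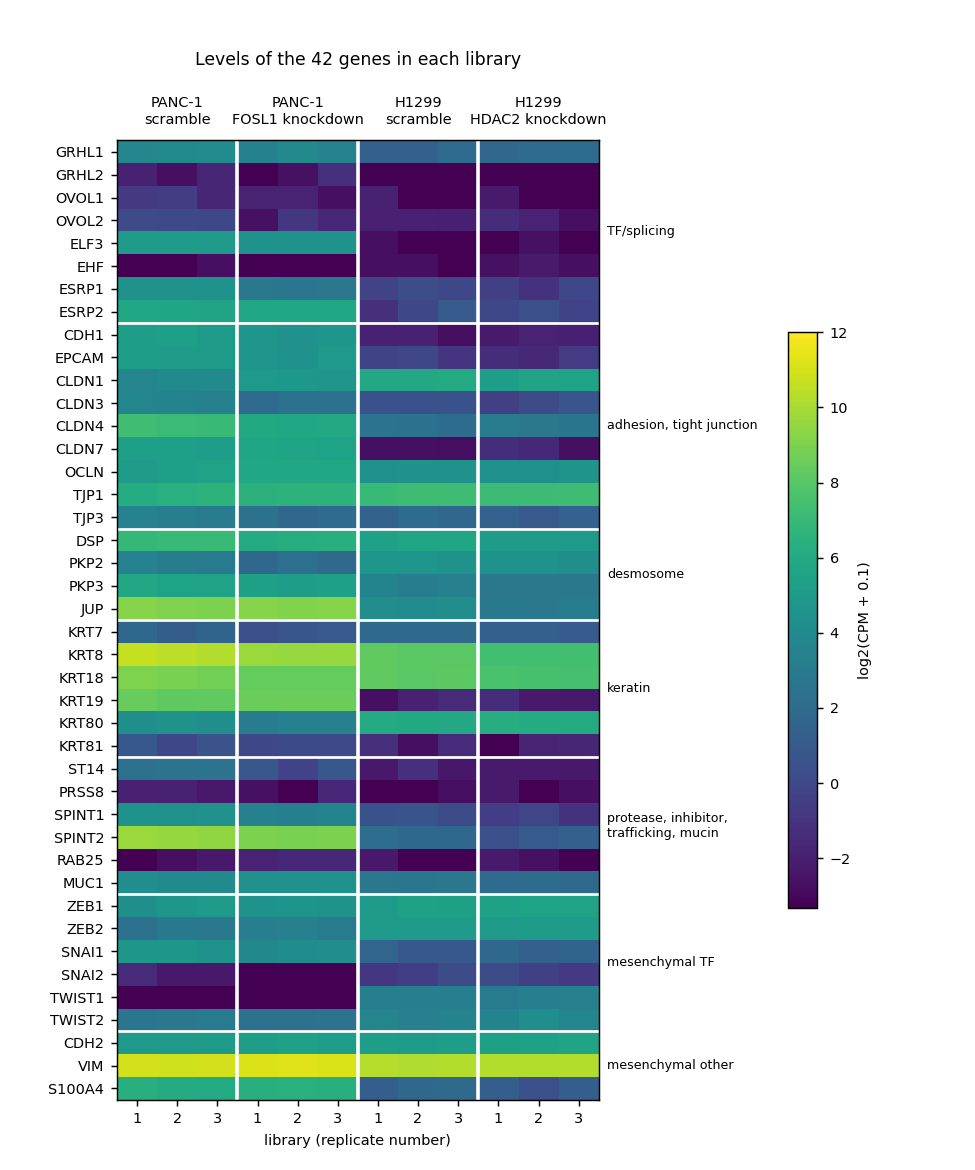
Level of each of the 42 genes (rows, by role) in each of the 12 libraries (columns, by group), as the colour of log2(CPM + 0.1), a per-gene count scale that does not correct for gene length. The dark cells of CDH1, KRT19, CLDN7 and ELF3 in all 6 H1299 libraries and of TWIST1 in all 6 PANC-1 libraries stand against the brighter cells of the other line, while VIM, KRT8 and KRT18 are bright throughout.

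The comparison of the scramble groups asked how the 2 lines differ before any knockdown. Most epithelial genes tested were higher in PANC-1 than in H1299, and PANC-1 also held high VIM. H1299 held KRT8, KRT18 and several junction genes but almost no E-cadherin, KRT19, CLDN7 or ELF3. Of 36 members with enough counts to test, 23 were higher in PANC-1 (19.7% of all 17619 genes tested were) and 5 were lower (20.3% of all genes), with both an adjusted p below 0.05 and a log2 fold change beyond 1 in size. The median log2 difference over the tested members was 2.32, and stayed there with TWIST1, which had no counts in PANC-1, set to its bound; it was -0.03 over all genes tested. These members passed the count filter in part because PANC-1 expressed them. GRHL2, OVOL1, EHF, PRSS8, RAB25 and SNAI2 did not pass it.

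On the RPKM scale, which divides the CPM by the gene's exon length in kilobases, the highest member of PANC-1 scramble was VIM, the intermediate filament vimentin, at 377 ± 9.15 (SD, n = 3). KRT8 followed at 205 ± 29.6, KRT18 at 157 ± 16.8, SPINT2 at 152 ± 14.8, KRT19 at 135 ± 11.1 and JUP at 109 ± 9.25 RPKM. KRT18, SPINT2 and KRT19, neighbours in this order, lay within their spread of each other. In H1299 scramble VIM was again highest at 234 ± 11.3 RPKM, then KRT18 at 92.7 ± 4.97, KRT8 at 40.7 ± 2.92, CLDN1 at 17.1 ± 0.635, KRT80 at 14.5 ± 0.579 and TJP1 at 12.9 ± 0.959 RPKM. KRT8 stood above KRT18 in PANC-1 and below it in H1299 on this scale, which depends on the annotated exon length.

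CDH1, which encodes E-cadherin and lies at chr16:68737292-68835537, drew 2048 counts over the 3 PANC-1 scramble libraries and 7 over the 3 H1299 ones, a ratio of 289 per scaled read (95% exact interval 140 to 719, counting error only). KRT19, a simple-epithelium keratin at chr17:41523617-41528308, drew 17876 counts against 9, a ratio of 1960 (1032 to 4288). CLDN7, a tight junction claudin, drew 2193 against 3, a ratio of 721 (247 to 3501). ELF3, an epithelial ETS-family factor, drew 1887 against 1, a ratio of 1862 (334 to 73597). The libraries of the 2 lines did not overlap for any of these 4 genes, as for 99% of all genes called between lines.

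Other epithelial genes were also higher in PANC-1, some of them with few counts in H1299. SPINT2, an inhibitor of membrane serine proteases, measured 844, 776 and 694 CPM in PANC-1 against 4.32, 3.44 and 3.54 CPM in H1299 scramble (log2 difference 7.67 ± 0.119 SE, adjusted p = 3.7e-21). JUP, the desmosomal and adherens junction protein plakoglobin, measured 588, 533 and 497 CPM against 19.2, 17.1 and 18.9 CPM (4.86 ± 0.0945, adjusted p = 7.1e-20). EPCAM, an epithelial adhesion molecule, differed by 5.69 on the log2 scale, the splicing factors ESRP2 and ESRP1 by 5.57 and 4.57, the membrane protease ST14 by 4.89 and the claudin CLDN4 by 4.83. Smaller differences passed both limits for SPINT1 (4.06), CLDN3 (3.07), KRT81 (2.56), OVOL2 (2.51), GRHL1 (2.32), KRT8 (2.32), PKP3 (2.26), TJP3 (1.45), DSP (1.35) and MUC1 (1.33). In all of these, each PANC-1 scramble library exceeded each H1299 scramble library.

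The 3 epithelial genes lower in PANC-1 were CLDN1, KRT80 and PKP2. CLDN1, a claudin of epidermal and other barriers, measured 12.7, 16.0 and 15.4 CPM in PANC-1 and 60.3, 61.4 and 64.7 CPM in H1299 (log2 difference -2.09 ± 0.102 SE, adjusted p = 1.5e-13). KRT80, a type II keratin, differed by -1.64 and PKP2, a plakophilin of the desmosome plaque, by -1.52. The remaining tested epithelial genes were inside the fold limit: KRT18 at 0.75, OCLN at 0.88, TJP1 at -0.80 and KRT7 at -0.43, of which KRT7 alone also missed the adjusted p threshold (0.065).

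The mesenchymal genes did not sort by line. TWIST1, a basic helix-loop-helix factor, had 0 counts in all 6 PANC-1 libraries and 9.57, 9.59 and 9.31 CPM in H1299 scramble, at least 59.6-fold higher than a floor of 3 counts per library. ZEB2, a zinc finger repressor of CDH1, was lower in PANC-1 (-2.35 ± 0.129 SE, adjusted p = 9.9e-13). SNAI1, another such repressor, was higher in PANC-1, at 27.9, 27.9 and 23.4 CPM against 3.06, 1.75 and 1.77 CPM (3.58 ± 0.173, adjusted p = 1.3e-13), and S100A4, a calcium-binding protein also called fibroblast-specific protein, was higher by 4.41. VIM (0.68), CDH2, which encodes N-cadherin (-0.24), TWIST2 (-0.65) and ZEB1 (-0.56, or -0.37 without PANC-1 scramble replicate 1) were inside the fold limit with adjusted p from 2.6e-08 to 0.022. SNAI2 drew 9 counts in PANC-1 scramble and 40 in H1299 scramble, a ratio of 0.222 (0.0947 to 0.465).

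**Figure D2:**
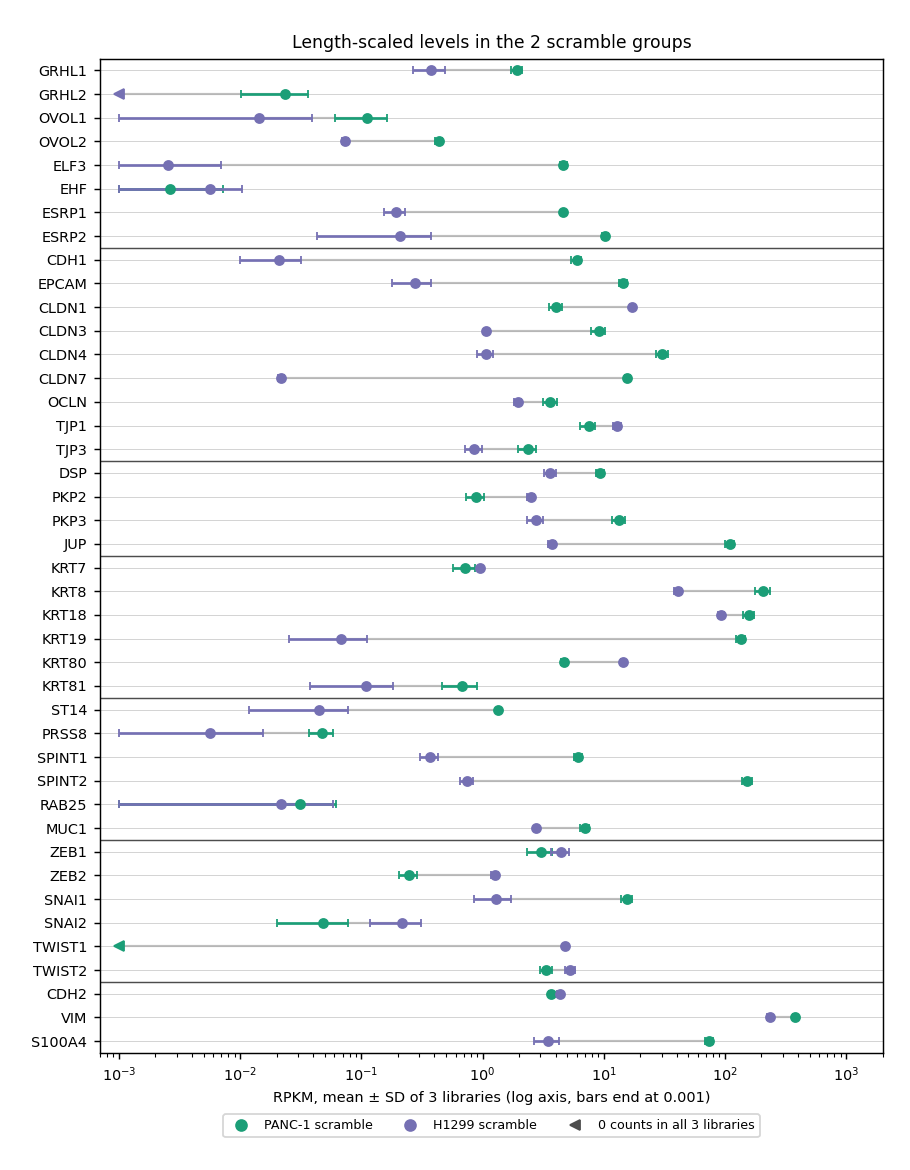
Mean RPKM ± SD (3 libraries each, log axis) of each gene in PANC-1 scramble and H1299 scramble, joined by a grey line; a triangle marks a group with no counts, and error bars end at 0.001. Most epithelial genes lie further right in PANC-1, CLDN1, KRT80 and PKP2 lie further right in H1299, and the mesenchymal genes go either way, from TWIST1 (no counts in PANC-1) to S100A4 (74.2 against 3.45 RPKM).

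FOSL1 knockdown in PANC-1 was compared with scramble to ask how these genes respond to reduced FOSL1. Most epithelial genes that could be tested fell, among them KRT8, KRT18, CDH1, DSP, CLDN3, CLDN4, ESRP1 and the matriptase gene ST14, but a minority of epithelial genes rose, led by CLDN1. Of 35 members tested, 21 fell (60%, against 27.1% of all 16345 genes tested) and 8 rose (22.9%, against 23.8%), at an adjusted p under 0.05. The share of members that rose was thus near that of all genes. The median log2 fold change was -0.48 over the tested members and -0.02 over all genes. Among the epithelial genes 28 were tested, with 19 lower, 5 higher and a median of -0.56. Among the mesenchymal genes 7 were tested, with 2 lower, 3 higher and a median of 0.17. In 28 of the 29 called members no knockdown library overlapped a scramble library, GRHL1 being the exception, and the same held for 94.6% of all genes called. Without PANC-1 scramble replicate 1 the counts were 22 lower and 11 higher, and without the mitochondrially encoded genes 21 and 9.

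Among epithelial regulators, ESRP1, an RNA-binding protein that sets epithelial splicing, fell from 22.2, 22.7 and 22.4 CPM to 6.96, 6.41 and 6.61 CPM (log2 fold change -1.78 ± 0.114 SE, adjusted p = 4.7e-12). Its paralogue ESRP2, expressed higher, measured 56.6, 53.4 and 49.9 CPM in scramble and 56.8, 59.1 and 58.6 CPM after knockdown (0.10 ± 0.0742, adjusted p = 0.26, or 0.016 without PANC-1 scramble replicate 1). ELF3 fell from 35.1, 34.3 and 30.8 CPM to 23.0, 22.3 and 23.7 CPM (-0.56 ± 0.0917, adjusted p = 1.8e-05). OVOL2, a zinc finger repressor of mesenchymal genes, drew 54 counts over the scramble libraries and 13 over the knockdown libraries, a ratio of 0.265 (95% exact interval 0.133 to 0.492), and passed the test (adjusted p = 0.0027). GRHL1, a grainyhead-like factor, measured 13.4, 15.7 and 16.6 CPM in scramble and 10.6, 14.5 and 11.1 CPM after knockdown, with overlapping groups (-0.36 ± 0.129, adjusted p = 0.021). That call was lost when knockdown replicate 1, knockdown replicate 3, scramble replicate 2 or scramble replicate 3 was left out (adjusted p = 0.14, 0.10, 0.068 and 0.081). GRHL2, OVOL1 and EHF stayed at or under 11 counts per library in PANC-1, and OVOL1 summed to 24 counts in scramble and 7 after knockdown (ratio 0.321, 0.117 to 0.767).

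The adhesion and tight junction genes moved in both directions. CDH1 fell from 36.9, 39.3 and 32.6 CPM to 26.5, 21.6 and 26.8 CPM, which left 67.8% of the scramble level (log2 fold change -0.56 ± 0.0994 SE, adjusted p = 4.9e-05). EPCAM fell from 37.6, 34.8 and 32.2 CPM to 25.6, 23.2 and 30.1 CPM (-0.43 ± 0.0993, adjusted p = 0.00088). CLDN4 fell from 160, 139 and 130 CPM to 63.7, 57.3 and 61.3 CPM (-1.26 ± 0.0764, adjusted p = 1.5e-12). Its neighbour CLDN3, also a sealing claudin, lies at chr7:73768997-73770270 on the opposite strand from CLDN4 at chr7:73799542-73832690 and fell by a like amount (-1.24 ± 0.151, adjusted p = 2.8e-07). TJP3, which encodes the scaffold ZO-3, fell by 1.13 on the log2 scale. Against these, CLDN1 rose from 12.7, 16.0 and 15.4 CPM to 30.1, 28.1 and 25.0 CPM, 186% of the scramble level (0.89 ± 0.11, adjusted p = 3.0e-07). OCLN, the tight junction protein occludin, rose by 0.44 and CLDN7 by 0.33. TJP1, the scaffold ZO-1, did not pass the test (0.14, adjusted p = 0.16, or 0.0045 without PANC-1 scramble replicate 3).

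Desmosome and keratin genes fell for the most part. DSP, desmoplakin, which ties desmosomes to keratin filaments, fell from 116, 135 and 128 CPM to 69.7, 76.0 and 76.7 CPM (log2 fold change -0.79 ± 0.0709 SE, adjusted p = 1.7e-09). The plaque proteins PKP2 and PKP3 fell by 1.19 and 0.35, PKP3 by 0.21 without PANC-1 scramble replicate 1. JUP held 588, 533 and 497 CPM in scramble and 586, 555 and 607 CPM after knockdown (0.09 ± 0.0607, adjusted p = 0.23, or 0.00042 without PANC-1 scramble replicate 1). KRT8 and KRT18 encode the partner keratins of simple epithelia. They lie on opposite strands at chr12:52897187-52949954 and chr12:52948871-52952906, and their annotated spans overlap. KRT8 fell from 1621, 1402 and 1214 CPM to 829, 792 and 805 CPM (-0.83 ± 0.070, adjusted p = 7.0e-10). KRT18 fell from 532, 482 and 429 CPM to 334, 337 and 333 CPM (-0.55 ± 0.0642, adjusted p = 1.6e-07). KRT80 fell by 1.07 and KRT7 by 0.88, whereas KRT19 rose from 346, 297 and 307 CPM to 369, 375 and 378 CPM (0.22 ± 0.0602, adjusted p = 0.0040). KRT81, at about 1 CPM, did not pass (-0.48, adjusted p = 0.25, and -0.24 without PANC-1 scramble replicate 1).

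KRT8 and KRT18 share long near-identical stretches with other annotated transcripts (81.4% and 91.5% of their transcript length), mostly of processed pseudogenes, so reads could be split between copies. The pseudogene entries named after KRT8 held 1.07% to 12.3% of the KRT8 count per library, at most 2.24% in PANC-1, and those named after KRT18 at most 1.05% of the KRT18 count. KRT81 shares 69.1% of its length, largely with KRT86, SPINT2 45.9% and VIM 41.9%. Antisense genes overlap 24.6% of VIM exon sequence. KRT8 and KRT18 overlap each other, antisense, in 7.63% of KRT8 and 17.1% of KRT18 exon sequence. A count without known strand setting cannot separate such overlaps.

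In the membrane protease system, ST14 encodes matriptase and SPINT1 and SPINT2 encode its Kunitz-type inhibitors HAI-1 and HAI-2. ST14 fell from 5.43, 5.65 and 5.58 CPM to 1.68, 0.764 and 1.69 CPM, 24.6% of the scramble level (log2 fold change -2.03 ± 0.235 SE, adjusted p = 1.3e-07). SPINT1 fell from 23.7, 20.5 and 21.3 CPM to 10.7, 9.52 and 12.1 CPM (-1.04 ± 0.115, adjusted p = 6.1e-08) and SPINT2 from 844, 776 and 694 CPM to 499, 490 and 514 CPM (-0.65 ± 0.0616, adjusted p = 5.2e-09). Protease and both inhibitors thus moved the same way. MUC1, a transmembrane mucin, rose from 18.4, 16.2 and 15.5 CPM to 21.1, 21.6 and 22.1 CPM (0.35 ± 0.103, adjusted p = 0.0068). PRSS8, the membrane protease prostasin, and RAB25, an epithelial trafficking GTPase, stayed at 4 counts or fewer in every PANC-1 library. RAB25 summed to 11 counts after knockdown and 3 in scramble (ratio 4.03, 1.07 to 22.5).

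Among the mesenchymal genes, changes went both ways. SNAI1 fell from 27.9, 27.9 and 23.4 CPM to 14, 17.7 and 18 CPM (log2 fold change -0.69 ± 0.111 SE, adjusted p = 1.4e-05). TWIST2 fell by 0.44 (adjusted p = 0.019), a call lost without knockdown replicate 1, knockdown replicate 2 or scramble replicate 3 (adjusted p = 0.065, 0.053 and 0.13) and with DESeq2 (0.051). ZEB2 rose from 5.27, 7.36 and 6.78 CPM to 9.24, 9.99 and 8.30 CPM (0.48 ± 0.148, adjusted p = 0.0091), while ZEB1 measured 19.3, 27.8 and 31.7 CPM in scramble and 23.0, 23.8 and 23.1 CPM after knockdown (-0.20, adjusted p = 0.19, or -0.35 and 0.00072 without PANC-1 scramble replicate 1). VIM rose from 1980, 1895 and 1973 CPM to 2322, 2428 and 2228 CPM (0.23 ± 0.0501, adjusted p = 0.00044). CDH2 rose by 0.29 (adjusted p = 0.0064, or 0.060 without knockdown replicate 2). S100A4 gave 0.17 (adjusted p = 0.051, or 0.00013 without PANC-1 scramble replicate 1), and passed narrowly with RLE scaling, DESeq2, a replicate block, no filter or no mitochondrially encoded genes (adjusted p from 0.033 to 0.046). SNAI2 had 0 counts after knockdown and 9 in scramble, which was too few to test, and TWIST1 had none in either group.

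**Figure D3:**
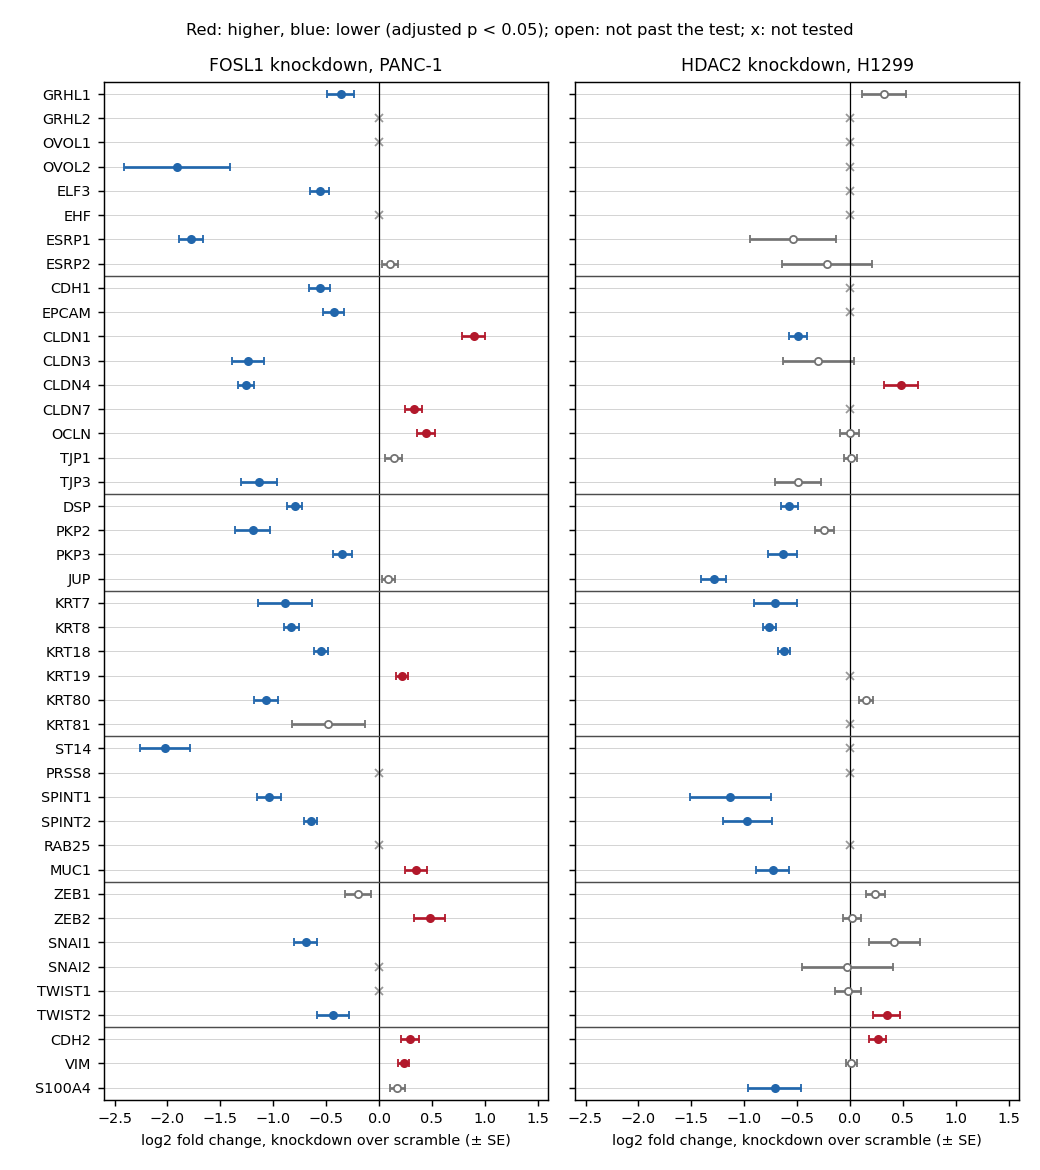
Log2 fold change (knockdown over scramble, ± SE) of each gene with FOSL1 knockdown in PANC-1 (left) and HDAC2 knockdown in H1299 (right), grouped by role. Blue (fell) and red (rose) points passed an adjusted p of 0.05, open points did not, and crosses mark untested genes; DSP, PKP3, KRT7, KRT8, KRT18, SPINT1 and SPINT2 are blue on both sides, while CLDN1 and CLDN4 change colour.

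HDAC2 knockdown in H1299 was compared with scramble to ask the same of HDAC2. The keratins KRT7, KRT8 and KRT18, the desmosome genes JUP, PKP3 and DSP, the protease inhibitors SPINT1 and SPINT2, and MUC1, CLDN1 and S100A4 fell, and CLDN4, TWIST2 and CDH2 rose. Of 29 members tested, 11 fell (37.9%, against 12.1% of all 16465 genes tested) and 3 rose (10.3%, against 10.3%). The share of members that rose was thus that of all genes. The median log2 fold change was -0.24 over the tested members and -0.0049 over all genes, and it was -0.52 over the 20 epithelial and 0.02 over the 9 mesenchymal members tested. The other 13 members, CDH1, EPCAM, KRT19, ELF3, CLDN7 and ST14 among them, had too few counts in H1299. Without H1299 scramble replicate 1 the counts were 10 lower and 5 higher, without HDAC2 knockdown replicate 2 they were 10 and 1, and without HDAC2 knockdown replicate 3 they were 9 and 1.

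JUP fell furthest, from 19.2, 17.1 and 18.9 CPM to 7.17, 6.85 and 8.57 CPM (log2 fold change -1.29 ± 0.115 SE, adjusted p = 5.0e-10). Its gene lies at chr17:41754604-41786931. PKP3 fell from 12.2, 9.02 and 10.1 CPM to 6.57, 6.74 and 6.84 CPM (-0.64 ± 0.134, adjusted p = 0.00069) and DSP from 42.9, 53.1 and 51.7 CPM to 34.2, 33.8 and 31.7 CPM (-0.57 ± 0.0829, adjusted p = 4.9e-06). PKP2, the fourth desmosome gene, gave -0.24 (adjusted p = 0.051, or 0.040 without H1299 scramble replicate 3, 0.043 with a replicate block and 0.046 with at least 10 counts in every library). In the keratins, KRT8 fell from 303, 270 and 267 CPM to 168, 165 and 164 CPM (-0.76 ± 0.0594, adjusted p = 3.0e-11) and KRT18 from 302, 275 and 277 CPM to 194, 184 and 178 CPM (-0.62 ± 0.059, adjusted p = 2.0e-09). For both keratins every knockdown library lay below every scramble library. The groups likewise did not overlap for 95.2% of all genes called with HDAC2 knockdown. KRT7 fell by 0.71 (adjusted p = 0.011, or 0.075 without knockdown replicate 3). KRT80 held 66.3, 62.3 and 61.6 CPM in scramble and 74.8, 69.0 and 67.9 CPM after knockdown (0.15, adjusted p = 0.11, or 0.028 without H1299 scramble replicate 1).

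CLDN1, the most abundant claudin member in H1299, fell from 60.3, 61.4 and 64.7 CPM to 37.1, 49.5 and 46.3 CPM (log2 fold change -0.49 ± 0.0813 SE, adjusted p = 3.7e-05). CLDN4 rose from 5.52, 5.36 and 4.15 CPM to 8.30, 6.68 and 6.05 CPM (0.48 ± 0.161, adjusted p = 0.029). That call was lost without knockdown replicate 1, knockdown replicate 2 or scramble replicate 3 (adjusted p = 0.20, 0.051 and 0.16) and with DESeq2 (0.056). OCLN measured 20.5, 22.4 and 23.3 CPM in scramble and 21.1, 20.7 and 24.3 CPM after knockdown, with overlapping groups. TJP1 gave 0.01, TJP3 -0.49 (adjusted p = 0.11) and CLDN3 -0.30 (adjusted p = 0.57). The CLDN3 value was -0.04 without knockdown replicate 1 and -0.66 without knockdown replicate 3, and neither passed.

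SPINT2 fell from 4.32, 3.44 and 3.54 CPM to 1.25, 1.93 and 2.52 CPM (log2 fold change -0.97 ± 0.232 SE, adjusted p = 0.0025) and MUC1 from 6.72, 6.43 and 6.68 CPM to 4.06, 4.10 and 3.84 CPM (-0.73 ± 0.156, adjusted p = 0.00085). SPINT1, near 1 CPM, fell from 1.37, 1.47 and 1.06 CPM to 0.597, 0.820 and 0.368 CPM (-1.13 ± 0.383, adjusted p = 0.031), a call lost without knockdown replicate 1, knockdown replicate 3, scramble replicate 1 or scramble replicate 2 (adjusted p = 0.079, 0.18, 0.066 and 0.097). Both inhibitors were thus far below their PANC-1 levels even before knockdown. Among regulators, ESRP1 and ESRP2 were at about 1 CPM with -0.54 (adjusted p = 0.37) and -0.22 (adjusted p = 0.76), and GRHL1 gave 0.32 (adjusted p = 0.29). Leaving out each library in turn moved ESRP1 from -0.88 (without knockdown replicate 3) to -0.26 (without knockdown replicate 2) and GRHL1 from 0.19 (without scramble replicate 1) to 0.60 (without scramble replicate 3), with no call.

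Of the mesenchymal members, CDH2 rose from 38.0, 35.4 and 38.3 CPM to 41.2, 44 and 49 CPM (log2 fold change 0.26 ± 0.0776 SE, adjusted p = 0.014, or 0.15 without knockdown replicate 3). TWIST2 measured 12.3, 10.2 and 11.2 CPM in scramble and 11.7, 18.1 and 13.2 CPM after knockdown, with overlapping groups (0.35 ± 0.129, adjusted p = 0.049). Without knockdown replicate 2 its value was 0.15 (adjusted p = 0.49), and it was also lost without knockdown replicate 3, scramble replicate 2 or scramble replicate 3 (adjusted p = 0.054, 0.13 and 0.11). The call was lost too with a replicate block (adjusted p = 0.061), with DESeq2 (0.087), in a single fit of all libraries (0.069) and with at least 10 counts in every library (0.051). S100A4 fell from 2.41, 3.50 and 3.90 CPM to 2.39, 1.23 and 2.37 CPM (-0.71 ± 0.25, adjusted p = 0.038), a call lost without knockdown replicate 2 (-0.46, adjusted p = 0.24), scramble replicate 2 (0.086) or scramble replicate 3 (0.19), and with DESeq2 (0.078). ZEB1 gave 0.24 (adjusted p = 0.054, or 0.011 and 0.044 without scramble replicate 2 or 3), and passed with a replicate block (0.025), RLE scaling (0.047) or no filter (0.026). SNAI1 gave 0.42 (adjusted p = 0.22, or 0.040 without scramble replicate 1). VIM, ZEB2, TWIST1 and SNAI2 lay between -0.02 and 0.02 with adjusted p from 0.90 to 0.98.

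The knockdown effects were then set against each other, as the FOSL1 log2 fold change in PANC-1 minus the HDAC2 log2 fold change in H1299. CLDN1, MUC1 and JUP had positive differences and CLDN4, KRT80, SNAI1 and ESRP1 negative ones, while KRT8 and KRT18 fell in both lines by amounts that the test did not separate. Of 37 members tested, 16 differed at an adjusted p under 0.05 (33.8% of all 18505 genes tested did), 7 with a positive and 9 with a negative difference. The median difference was -0.04 over the members and 0.03 over all genes. Target and line change together here.

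**Figure D4:**
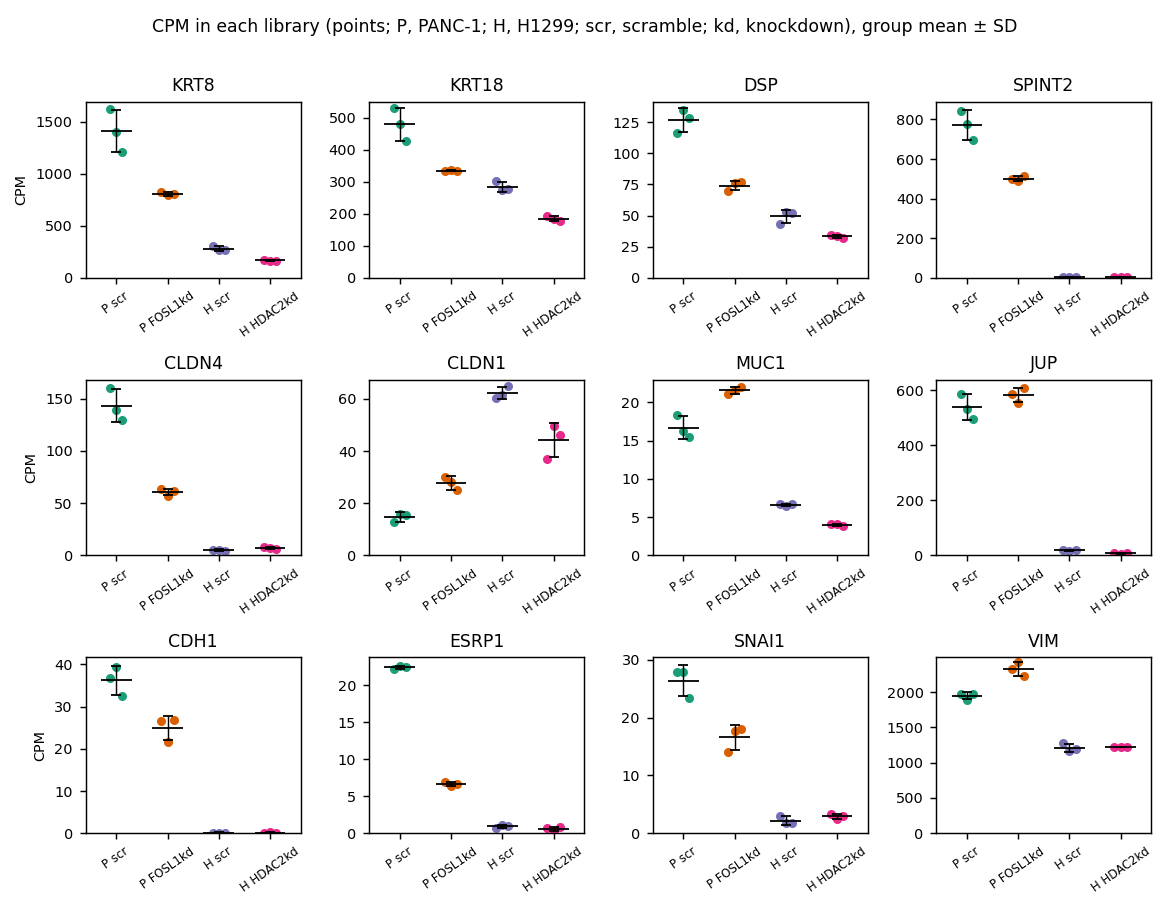
CPM of 12 genes in each library (points), with group means and SD bars, for PANC-1 scramble, PANC-1 FOSL1 knockdown, H1299 scramble and H1299 HDAC2 knockdown; each panel has its own axis from 0. KRT8, KRT18, DSP and SPINT2 step down after either knockdown, CLDN1 steps up after FOSL1 knockdown and down after HDAC2 knockdown, and JUP is level in PANC-1.

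Among members tested in both knockdowns (27), 7 fell in both: DSP, PKP3, KRT7, KRT8, KRT18, SPINT1 and SPINT2. Of all 14585 genes tested in both, 4.48% fell in both. CDH2 alone rose in both, where 3.05% of all genes did, so this count was near the share of all genes. Both CDH2 calls and the HDAC2 calls of KRT7 and SPINT1 were among those lost without single libraries. The difference for KRT8 was -0.04 ± 0.0996 (SE, adjusted p = 0.79), for KRT18 0.10 ± 0.0912 (adjusted p = 0.45), for DSP -0.20 ± 0.111 (adjusted p = 0.17) and for CDH2 0.05 ± 0.117 (adjusted p = 0.79). A further 4 were called in opposite directions (6.52% of all genes were). Of these, the HDAC2 calls of CLDN4 and TWIST2 and the FOSL1 call of TWIST2 were among those lost with DESeq2 or without single libraries. CLDN1 rose with FOSL1 and fell with HDAC2 knockdown (difference 1.40 ± 0.141, adjusted p = 3.1e-09), as did MUC1 (1.10 ± 0.169, adjusted p = 6.4e-06). CLDN4 fell with FOSL1 and rose with HDAC2 knockdown (-1.72 ± 0.166, adjusted p = 1.4e-09), as did TWIST2 (-0.76 ± 0.21, adjusted p = 0.0048).

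JUP differed by 1.40 ± 0.119 (SE, adjusted p = 1.0e-10), at 106% of its scramble level in PANC-1 and 40.9% in H1299. KRT80 differed by -1.20, PKP2 by -0.93, SNAI1 by -1.09, S100A4 by 0.90 and OCLN by 0.47, each with an adjusted p from 3.0e-09 to 0.0052. Weaker differences were those of ESRP1 (-1.22, adjusted p = 0.0080, or 0.12 without HDAC2 knockdown replicate 3), CLDN3 (-0.93, adjusted p = 0.034, or -0.59 and 0.28 without HDAC2 knockdown replicate 3), ZEB2 (0.48, adjusted p = 0.019), VIM (0.24, adjusted p = 0.011) and GRHL1 (-0.66, adjusted p = 0.035). The CLDN3 call was also lost without H1299 scramble replicate 1, FOSL1 knockdown replicate 1 or PANC-1 scramble replicate 1 (adjusted p = 0.052, 0.080 and 0.060). The VIM call was lost without any single HDAC2 knockdown library or PANC-1 scramble replicate 2 (adjusted p from 0.057 to 0.090). The ZEB2 call was lost without HDAC2 knockdown replicate 1, FOSL1 knockdown replicate 2, H1299 scramble replicate 2 or 3, or PANC-1 scramble replicate 1 (adjusted p from 0.055 to 0.075). The GRHL1 call was lost without 7 of the 12 libraries in turn: HDAC2 knockdown replicate 2 or 3, FOSL1 knockdown replicate 1 or 3, H1299 scramble replicate 1 or 2, and PANC-1 scramble replicate 3 (adjusted p from 0.052 to 0.11). SNAI2 also passed (adjusted p = 0.028), but with no counts after FOSL1 knockdown its fitted difference has no interpretable size, and the call was lost without any single FOSL1 knockdown library, HDAC2 knockdown replicate 1 or PANC-1 scramble replicate 1 (adjusted p from 0.053 to 0.079).

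Promoter windows of the members are shown for the motifs read by the factor families above, from the RefSeq table of GRCh38.p14 (250 bases before to 50 after the annotated start), in which 22 of the 42 members were found. The windows not found were those of GRHL2, OVOL1, OVOL2, ESRP1, ESRP2, CDH1, EPCAM, PKP2, PKP3, KRT7, KRT18, KRT19, KRT80, KRT81, ST14, PRSS8, SPINT2, SNAI1, SNAI2 and TWIST1. TGANTCA, a loose form of the AP-1 motif with any base at its centre, is a pattern that reads the same on both strands. It occurred in 2 of the 22 (9.09%) and in 7.76% of 27305 promoters. CACCTG, the E-box read by ZEB and SNAI factors, on either strand, occurred in 9 of the 22 (40.9%) and in 20.6% of all promoters. The windows of TJP1 and ZEB1, counted among the 9, lay outside the GENCODE transcripts of these genes, and 7 of the other 20 held the motif. No TGANTCA match overlapped a CACCTG match. CLDN4 and SPINT1 were the 2 with TGANTCA, a share near that of all promoters. DSP, MUC1 and RAB25 each held a pair of CACCTG, of which DSP and MUC1, tested in both knockdowns, are shown. Whether these motifs bear on the knockdown responses was not tested. The matches are in capitals, 5′ to 3′ on the strand of the gene.
CLDN4, chr7:73830746-73830845, plus strand: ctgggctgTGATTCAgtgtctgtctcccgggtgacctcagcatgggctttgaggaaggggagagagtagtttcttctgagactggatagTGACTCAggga
SPINT1, chr15:40843998-40844057, plus strand: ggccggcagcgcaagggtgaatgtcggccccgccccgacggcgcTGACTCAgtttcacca
DSP, chr6:7541481-7541600, plus strand: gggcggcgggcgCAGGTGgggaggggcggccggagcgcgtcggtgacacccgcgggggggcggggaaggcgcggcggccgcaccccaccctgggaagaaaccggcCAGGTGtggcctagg
MUC1, chr1:155192966-155193015, minus strand: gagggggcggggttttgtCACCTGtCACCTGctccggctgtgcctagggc
The CLDN4 matches began 242 and 161 bases before the start, the SPINT1 match 6 before it, the DSP matches 178 and 85 before it and the MUC1 matches 82 and 75 before it. A match here is a run of letters and not a measured site. No match elsewhere says only that these letters are not in that window.

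Other genes of the same pathways, from lists of 92 further symbols, were described for context. Of all genes tested, 27.1% fell and 23.8% rose with FOSL1 knockdown, and 12.1% fell and 10.3% rose with HDAC2 knockdown. Among further adherens junction and desmosome genes, 9 of 15 tested fell and 2 rose with FOSL1 knockdown, and 4 of 11 fell with HDAC2 knockdown. DSC2, a desmosomal cadherin, fell from 23.9 ± 2.42 to 9.71 ± 0.296 CPM (SD, n = 3) with FOSL1 knockdown, and DSG2, another, fell by 0.42 on the log2 scale in each knockdown. EVPL, envoplakin, and PKP4, a junctional armadillo protein, rose by 0.37 and 0.19 in PANC-1. PPL, periplakin, fell in both knockdowns (log2 fold change -0.34 in PANC-1 and -1.07 in H1299). Of the further tight junction genes, 5 of 12 fell and 1 rose with FOSL1, and 4 of 11 fell and 1 rose with HDAC2 knockdown. LSR, the tricellular junction receptor, fell in both (by 0.39 and 0.93), as did F11R, the adhesion molecule JAM-A (by 0.41 and 0.36), while CLDN15 rose by 0.70 in PANC-1 and CGN, cingulin, by 0.48 in H1299.

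Among further epithelial polarity and transcription genes, 6 of 10 tested fell and 2 rose with FOSL1 knockdown, and 3 of 7 fell with HDAC2 knockdown. KLF4 and KLF5, Krüppel-like factors of epithelia, fell by 1.53 and 0.94 in PANC-1, and KLF4 fell by 0.32 in H1299. PARD6B, a polarity adaptor, and FOXA2, an endodermal forkhead factor, rose by 0.42 and 0.25 in PANC-1, and LLGL2, a basolateral polarity protein, fell by 0.53 in H1299. Of the further epithelial membrane genes, 3 of 6 fell with FOSL1 knockdown. These were the protease TMPRSS2 (by 0.79), the sodium channel subunit SCNN1A (by 0.55) and MYO5B (log2 fold change -2.15). With HDAC2 knockdown 3 of 4 fell. SCNN1A fell from 9.73 ± 0.383 to 3.69 ± 0.222 CPM, the adaptor subunit AP1M2 by 0.49 and MYO5B by more (log2 fold change -1.07). MYO5B averaged under 5 CPM over the libraries of each comparison. Of 3 further keratins tested in PANC-1, KRT15 fell by 1.09 and KRT10 rose by 0.46.

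Further mesenchymal transcription factors included 1 of 10 called with FOSL1 knockdown, HMGA2, a chromatin architectural protein, which fell by 0.78, and 2 of 8 with HDAC2 knockdown, PRRX1 and TCF4, which rose by 0.27 and 0.21. Of 6 further mesenchymal adhesion, matrix and splicing genes tested in each line, FN1, fibronectin, fell from 15.2 ± 0.827 to 3.35 ± 0.857 CPM with FOSL1 knockdown (log2 fold change -2.19 ± 0.157 SE, adjusted p = 3.4e-11) and rose from 452 ± 18.5 to 589 ± 25.2 CPM with HDAC2 knockdown (0.38 ± 0.0566, adjusted p = 8.1e-06). LGALS1, galectin 1, and NES, nestin, rose by 0.47 and 0.44 in PANC-1, where the splicing regulator QKI fell by 0.47. RBFOX2 fell in both knockdowns (log2 fold change -0.36 in PANC-1 and -0.35 in H1299).

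**Figure D5:**
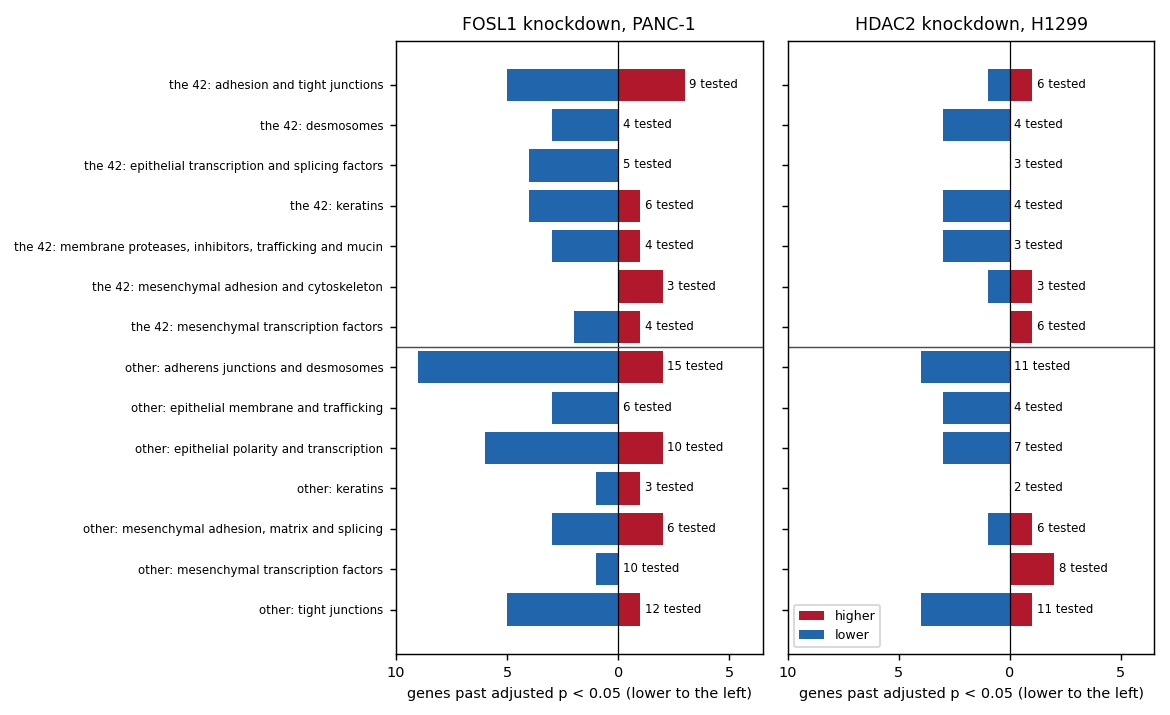
Number of genes in each list past an adjusted p of 0.05, higher (right, red) and lower (left, blue), for FOSL1 knockdown in PANC-1 and HDAC2 knockdown in H1299; the upper 7 lists hold the 42 genes and the lower 7 the further pathway genes, with the number tested beside each bar. Blue bars are longer than red ones for most epithelial lists in both panels, against shares of all genes of 27.1% lower and 23.8% higher with FOSL1 knockdown and 12.1% and 10.3% with HDAC2 knockdown.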

How the data were processed

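RNA-seq libraries of 12 cell line samples (4 groups of 3) were analysed from the raw counts that the authors deposited per gene. The submitters' processing notes name cutadapt, FastQC, STAR 2.7.2b against GRCh38 and featureCounts 2.0.1, and the strand setting and annotation release are not given in the sources used here. Each comparison was fitted across all genes with edgeR 4.0.16 in R 4.3.3 (filterByExpr, TMM scaling, glmQLFit and glmQLFTest) with Benjamini-Hochberg adjustment over all genes tested. A call needed an adjusted p under 0.05, and between lines also an absolute log2 fold change over 1. The line comparison shares its scramble libraries with both knockdown comparisons. With 3 against 3 libraries an exact permutation test could not go below p = 0.1. CPM used TMM totals over 12 libraries and RPKM the exon length in GENCODE 44, which held 60340 of the 60668 gene identifiers and all 42 members. Count ratios carry exact binomial intervals, and the floor was 3 counts per library. The members and the lists of further genes were chosen with earlier results of these data known. From each further list, up to 2 genes with the largest rise and fall per knockdown among those called with a mean of at least 5 CPM were named. MYO5B, under that mean, was named as well, and PPL and RBFOX2 are given for both knockdowns. Alternatives were RLE scaling, other filters, DESeq2 1.42.0, a single fit of all libraries, a replicate block, omission of mitochondrially encoded genes, another fold limit and leaving out each library.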

Additional observations from a re-analysis of the deposited data

How the results depend on the processing

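Of 102 recomputed counts of members called, 94 stayed within 1.5 times their value. With a fold limit of 0.5 on the log2 scale, 1 member in place of 8 rose with FOSL1 knockdown and 0 in place of 3 with HDAC2 knockdown; the 3 rises with HDAC2 knockdown were 1 with DESeq2 and 1 to 5 when each library was left out. Between lines, 14 in place of 23 members were higher in PANC-1 when every library needed 10 counts, since fewer members were tested, and 9 in place of 5 were lower without the fold limit. Of 1568 recomputed single values, 57 lost and 20 gained a call with the direction kept, and 18 changed sign, all of them uncalled values of the HDAC2 knockdown. OCLN gave 0.00277 with RLE scaling, 0.00454 without a filter, 0.00242 with DESeq2 and 0.000358 in the fit of all libraries. Leaving out each library in turn gave -0.0773 to 0.0411 for OCLN, -0.642 to 0.625 for ESRP2, -0.358 to 0.409 for SNAI2, -0.0532 to 0.0522 for TJP1, -0.0669 to 0.0583 for TWIST1, -0.00985 to 0.0499 for VIM and -0.0393 to 0.064 for ZEB2. The cause was not tested. The replicate numbers did not pair the knockdown with the scramble libraries (r from -0.042 to 0.039). Between the scramble groups of the 2 lines r was 0.24, 0.070 and 0.091 for replicates 1, 2 and 3, not all over 0.1. With a replicate block 9 members rose and 21 fell with FOSL1 knockdown, 3 rose and 12 fell with HDAC2 knockdown, 23 were higher and 5 lower in PANC-1, and 17 differences were called. With HDAC2 knockdown, the count ratios of untested members such as CDH1 (1.21, 0.382 to 3.91) and CLDN7 (3.52, 0.906 to 19.9) had intervals that spanned 1, so a change was not detectable at this depth.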
